A study of Mus musculus with 2 samples.

Results

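The genes described here are 6 components of vascular endothelial growth factor (VEGF) signalling: the ligands Vegfa and Vegfb, the receptor tyrosine kinases Kdr (VEGFR2) and Flt1 (VEGFR1), and the co-receptors Nrp1 and Nrp2. They were taken by symbol from the 32285 genes of the deposited matrices, and all 6 were found. The set was chosen by measured values, since the levels of these genes across the cell classes of the same libraries were already known, so those levels are given as a description. The retinas came from mice kept under short-wavelength light (SW) or under full-spectrum white light (WL) from postnatal day 14 for 2 weeks. Each light condition was profiled as 1 droplet single-cell library of whole dissociated retina. Strain, sex, genotype, and the number of animals behind each library were not given in the sources used here. With 1 library per condition no difference between the lights could be tested, and every interval below is a 95% interval of counting error.

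VEGF-A is a secreted factor that is induced by low oxygen and drives vessel growth and permeability, chiefly by activating KDR on endothelial cells. FLT1 binds VEGF-A more tightly but signals weakly, has a soluble form that traps the ligand, and is also the receptor of VEGF-B. Neuropilins lend VEGF receptors additional ligand contacts and also bind class 3 semaphorins together with plexins. In the retina, Müller glia, the radial glia that span all layers, are a well-known source of VEGF-A, while both receptor kinases are best known from endothelium.

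The genes lie on 5 mouse chromosomes in the mm10 build. Vegfa spans chr17:46016993-46032369 and Vegfb chr19:6982473-6987651, both on the minus strand. Kdr spans chr5:75932827-75978458 and Flt1 chr5:147561604-147726011, also on the minus strand. Nrp1 spans chr8:128358604-128503363 and Nrp2 chr1:62703285-62818695, both on the plus strand. The annotation places Mir1903 inside Nrp1 on the same strand. Nrp2 overlaps the predicted gene Gm37121 on the same strand and Gm29083 on the other strand. Nrp2 counts may share reads with Gm37121. The other 4 genes overlap no annotated gene.

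The promoters of the main ligand and of both receptor kinases are shown because the results turn on these 3 genes. They are the 250 bases before the RefSeq start (GRCm38.p6), read along the minus strand 5′ to 3′: chr17:46032378-46032627 for Vegfa, chr5:75978456-75978705 for Kdr and chr5:147726012-147726261 for Flt1. Capitals mark the core of the hypoxia response element, ACGTG or GCGTG, on either strand (CACGT or CACGC where the other strand carries it).
Vegfa: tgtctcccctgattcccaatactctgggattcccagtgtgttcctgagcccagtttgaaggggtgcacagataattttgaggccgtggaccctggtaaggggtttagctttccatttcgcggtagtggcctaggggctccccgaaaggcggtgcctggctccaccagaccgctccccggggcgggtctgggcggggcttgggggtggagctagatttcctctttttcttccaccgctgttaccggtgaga
Kdr: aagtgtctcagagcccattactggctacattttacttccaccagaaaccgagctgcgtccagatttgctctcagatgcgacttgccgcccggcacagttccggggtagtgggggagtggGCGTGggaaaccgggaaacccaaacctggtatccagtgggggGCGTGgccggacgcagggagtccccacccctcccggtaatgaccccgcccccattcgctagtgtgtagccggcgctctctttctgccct
Flt1: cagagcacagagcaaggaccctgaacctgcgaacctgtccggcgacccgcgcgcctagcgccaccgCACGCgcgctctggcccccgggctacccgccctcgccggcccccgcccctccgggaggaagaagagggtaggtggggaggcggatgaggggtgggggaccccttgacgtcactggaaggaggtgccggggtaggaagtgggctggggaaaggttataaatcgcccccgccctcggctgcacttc
The Kdr window held 2 such cores, both read as GCGTG, and the Flt1 window held 1, read as CACGC. The Vegfa window held none, and the well-described hypoxia response element of Vegfa lies farther upstream than this window. Among all 6 members, 5 had at least 1 core, against 38.6% of the 32851 promoter windows of the same length. The windows of Vegfa, Kdr and Flt1 had GC contents of 59.2%, 61.6% and 70.4%, above the median of 52.4% over all windows. A match of 5 letters is a description of the sequence and shows no binding.

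The short-wavelength library held 16106 barcodes with 51681468 UMIs (unique molecular identifiers, 1 per captured transcript), and the white-light library 5707 barcodes with 20952588 UMIs. After filtering, 14023 short-wavelength and 5436 white-light cells were kept, and 12607 in SW and 4834 in WL were rods. Cell names were rebuilt from marker genes. Müller glia-like cells, called Müller-like below, numbered 87 in SW and 43 in WL. Their median depth was 5707 UMIs per cell in SW and 7384 in WL, against 2360 in SW and 2751.5 in WL rods. Also named were 388 SW and 136 WL cones, 125 SW and 49 WL rod bipolar-like cells, and 44 SW and 23 WL microglia or macrophage-like cells. A cluster of 81 SW and 43 WL cells, called unnamed inner neurons below, was led by genes such as Cntn5, Kcnb2 and Grik1. It stayed unnamed because its divisions did not meet the naming rule. Most had under 3 own markers among their 20 leading genes or a low marker score. One of its divisions, of 20 cells, came entirely from the white-light library. By marker score this division was closest to rods (0.820), as was another of 14 cells (0.531). Another 691 SW and 308 WL cells stayed unnamed, among them a shallow group of 10 SW and 4 WL cells led by Dapl1, Dbi and the Müller gene Rlbp1. No endothelial cluster was found. Both libraries shared 26 barcodes. Rod RNA was also found in the glia, where 8 rod markers summed to 4926 CPM in SW and 5060 CPM in WL (CPM, counts per 1000000 UMIs of the class), against 28735 CPM in SW and 30398 CPM in WL rods. In the unnamed inner neurons the same markers summed to 4511 CPM in SW and 9273 CPM in WL. The part of rod cells or rod RNA in the values of that group was not tested.

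The label of the Müller-like cells was checked first, since most results turn on it. Their 13 Müller markers summed to 18106 CPM in the short-wavelength and 16328 CPM in the white-light library, against 512 CPM in SW and 523 CPM in WL rods, and none of the 13 was at 0. Glul, glutamine synthetase, stood at 6059 CPM in SW and 5117 CPM in WL Müller-like cells, and Rlbp1, a retinaldehyde carrier of the visual cycle, at 1135 CPM in SW and 1095 CPM in WL. Astrocytes share several of these genes. The 7 astrocyte markers summed to 1083 CPM in SW and 1054 CPM in WL Müller-like cells, against 525 CPM in SW and 524 CPM in WL rods. Most of that sum in Müller-like cells was Aqp4 and Slc1a2, and 48 of 87 SW and 22 of 43 WL cells held 3 or more of the 7. Pax2 had 0 UMIs in both libraries, and Gfap had 1 in SW and 0 in WL. The part of astrocyte RNA in the values below was not tested. Flt1 itself was among the 10 leading genes of the cluster, so the cells were also clustered without the 6 members, which left each ratio to rods below within its interval.

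Vegfa RNA was highest in Müller-like cells, at 361 CPM (312 to 415.5) in the short-wavelength library and 273 CPM (219 to 337) in the white-light library. Rods had 18.0 CPM (16.7 to 19.5) in SW and 16.3 CPM (14.4 to 18.3) in WL, and the ratio of Müller-like cells to rods was 20.001 (17.0 to 23.5) in SW and 16.8 (13.0 to 21.4) in WL. Between these extremes lay 3 neuronal groups. Cones had 87.0 CPM in SW and 91.6 CPM in WL, rod bipolar-like cells 80.3 CPM in SW and 94.5 CPM in WL, and the unnamed inner neurons 120.5 CPM in SW and 85.3 CPM in WL. Their intervals overlapped their neighbours in the order in both libraries, whereas that of Müller-like cells lay above all others. In SW the ratio to the unnamed inner neurons was 0.722 (0.543 to 0.972) for cones and 0.666 (0.463 to 0.959) for rod bipolar-like cells. In WL it was 1.07 (0.675 to 1.77) for cones and 1.11 (0.652 to 1.92) for rod bipolar-like cells. Microglia or macrophage-like cells had 16.3 CPM in SW and 10.7 CPM in WL, on 5 UMIs in SW and 2 in WL, which overlapped rods.

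Rods, the most numerous class, held most of the Vegfa RNA recovered, but less than their share of cells. They made up 89.9% of SW and 88.9% of WL kept cells. Over all genes they held 36622320 UMIs in SW and 16536337 in WL, against 537406 in SW and 318770 in WL Müller-like cells. Of all Vegfa UMIs in kept cells, rods carried 53.9% in the short-wavelength and 52.3% in the white-light library, Müller-like cells 15.8% in SW and 16.9% in WL, and cones 17.4% in SW and 16.0% in WL. Under short-wavelength light 64.4% of Müller-like cells had a Vegfa UMI, and under white light 62.8%, against 4.84% of SW and 5.11% of WL rods, whose cells were shallower. With every cell thinned to 1000 UMIs the shares were 24.7% of SW and 27.0% of WL Müller-like cells, against 1.86% of SW and 1.38% of WL rods. Thinning left out 2 SW and 6 WL Müller-like cells, and 6 SW and 258 WL rods, that were shallower than this. Within Müller-like cells Vegfa ran from 0 to 22 UMIs per cell in the short-wavelength library and from 0 to 11 in the white-light library, with a median of 1 in both. The single richest cell held 11.3% of these Vegfa UMIs in SW and 12.6% in WL.

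Vegfb, a ligand of FLT1 with a weak role in vessel growth, showed no such peak. Its lowest level was in rods, at 12.5 CPM (11.4 to 13.7) in SW and 13.6 CPM (11.9 to 15.5) in WL. Müller-like cells had 33.5 CPM in SW and 47.1 CPM in WL, the unnamed inner neurons 36.3 CPM in SW and 78.2 CPM in WL, rod bipolar-like cells 33.9 CPM in SW and 28.4 CPM in WL, microglia or macrophage-like cells 26.0 CPM in SW and 48.2 CPM in WL, and cones 22.9 CPM in SW and 26.8 CPM in WL. The intervals of these classes overlapped one after the other, but not all classes were alike. In WL the ratio to the unnamed inner neurons was 0.343 (0.184 to 0.642) for cones and 0.363 (0.164 to 0.766) for rod bipolar-like cells. In SW it was 0.629 (0.368 to 1.12) for cones and 0.932 (0.4995 to 1.77) for rod bipolar-like cells. A single WL cell held 6 of the 22 Vegfb UMIs of the unnamed inner neurons. The ratio of Müller-like cells to rods was 2.67 (1.57 to 4.27) in SW and 3.46 (1.90 to 5.83) in WL, on 18 UMIs in SW and 15 in WL. Averaged over cells it was 2.74 in SW and 9.70 in WL, with each library clustered alone 2.61 in SW and 2.81 in WL, and thinned to 1000 UMIs 1.96 (0.236 to 7.22) in SW on 2 UMIs, with 0 UMIs in WL. An average over cells weighs shallow and deep cells alike. The WL Müller-like cells included 1 of only 620 UMIs with 2 Vegfb UMIs and 1 of 613 UMIs with 1, which raise that average strongly. The ligands differed in how unevenly they were spread. Vegfa was 22.2-fold (9.34 to 69.1) higher in Müller-like than in microglia or macrophage-like cells of the short-wavelength library, where the same ratio of Vegfb was 1.29 (0.532 to 3.42).

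**Figure D1:**
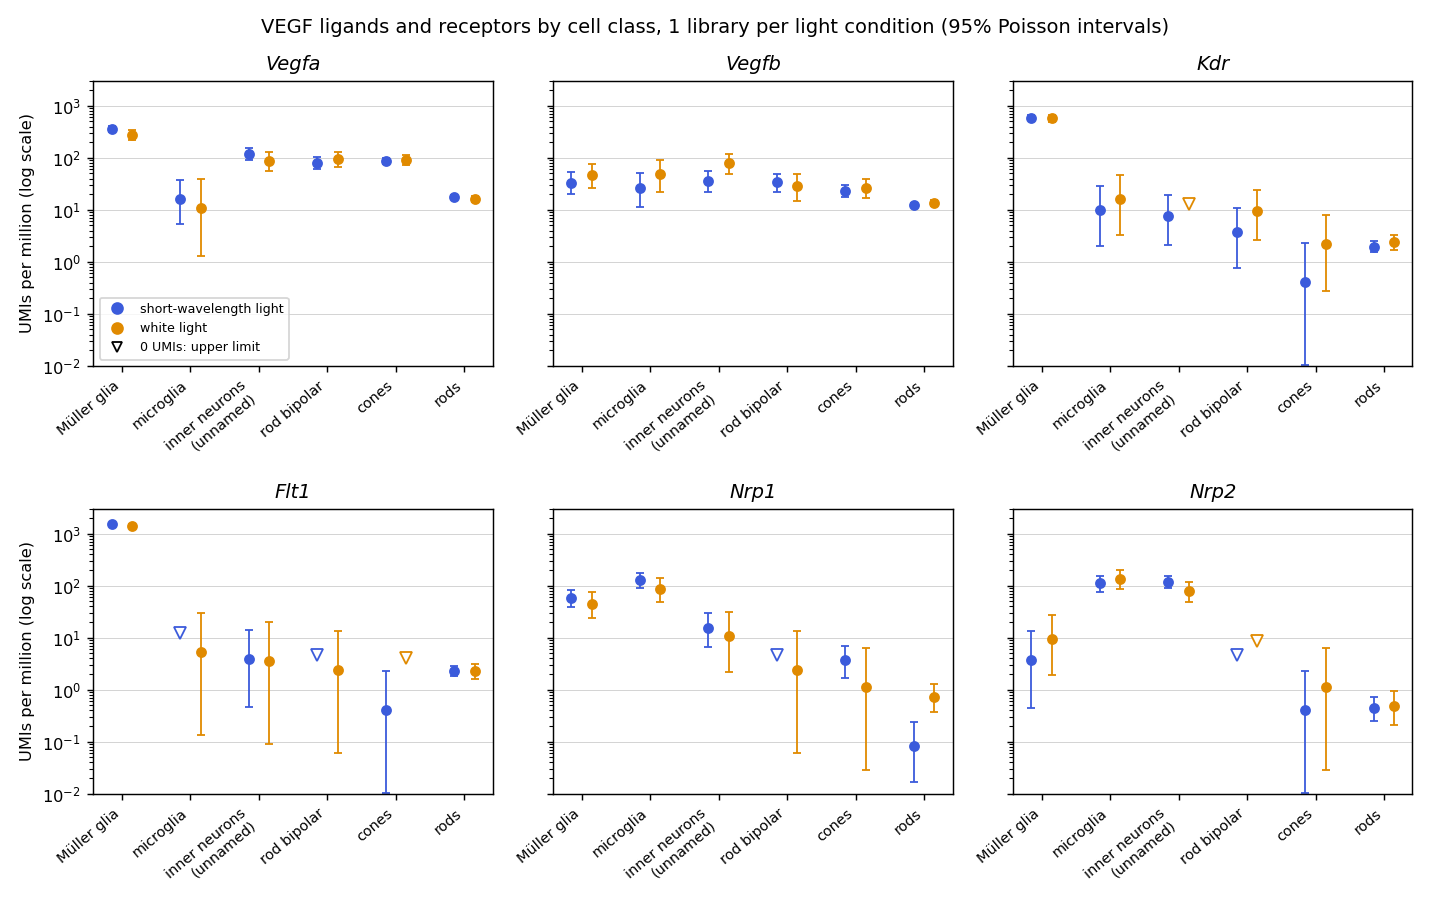
Levels of the 6 genes, in CPM on a log axis, in each cell class (x axis), with short-wavelength light in blue and white light in orange. Points are 1 library each, bars are 95% Poisson intervals and open triangles are upper limits where no UMI was found. Kdr stood at 580.4 to 592 and Flt1 at 1396 to 1517 in Müller-like cells, and both at 16.1 or less in every other class, while Nrp2 was high in microglia and unnamed inner neurons.

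Kdr, the main signalling receptor of VEGF-A, was found mostly in Müller-like cells. It stood there at 592 CPM (528 to 660.5) in the short-wavelength and 580.4 CPM (499.7 to 670.3) in the white-light library, against 1.97 CPM in SW and 2.36 CPM in WL rods. The Müller-like level was 301 times (232 to 394) that of rods in SW and 246 times (173 to 357) in WL. These cells made up 0.620% of SW and 0.791% of WL kept cells but held 78.3% of all SW and 79.1% of all WL UMIs of Kdr. As they were deeper than rods, their share of the UMIs of all genes was larger than their share of cells. The highest other class was microglia or macrophage-like cells, at 9.76 CPM in SW and 16.1 CPM in WL on 3 UMIs in each library. A Kdr UMI was found in 83.9% of SW and 79.1% of WL Müller-like cells, against 0.524% of SW and 0.765% of WL rods. After thinning the shares were 47.1% of SW and 35.1% of WL Müller-like cells, against 0.119% of SW and 0.175% of WL rods.

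Flt1 followed the same pattern at a higher fold. Its level in Müller-like cells was 1517 CPM (1414 to 1624) in the short-wavelength and 1396 CPM (1269 to 1532) in the white-light library, against 2.29 CPM in SW and 2.24 CPM in WL rods. The Müller-like level was 661 times (528 to 838) that of rods in SW and 624 times (446 to 898) in WL. Müller-like cells held 90.1% of all SW and 90.6% of all WL UMIs of Flt1. A Flt1 UMI was present in 93.1% of them in SW and 86.0% in WL, against 0.643% of SW and 0.745% of WL rods, and after thinning in 74.1% in SW and 73.0% in WL, against 0.294% of SW and 0.175% of WL rods. Cones had 1 Flt1 UMI in SW and 0 in WL, and rod bipolar-like cells 0 in SW and 1 in WL. Among all genes with at least 10 UMIs in Müller glia-like and rod cells together, Flt1 ranked 64 of 15629 in SW and 44 of 14457 in WL by this ratio, and Kdr 284 in SW and 234 in WL.

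With all UMIs used, the 6 members exceeded 2-fold over rods in Müller-like cells of both libraries, where 23.9% of all genes tested did in SW and 23.3% in WL. Vegfb was under 2-fold in SW once thinned, as given above. Nrp2 rested on 2 SW and 3 WL Müller UMIs, and its SW ratio of 8.52 had an interval (0.9502 to 36.2) that included 1. Since the cells were clustered on these genes among others, this count only describes the cluster. The few rods with receptor UMIs also held more Müller RNA than other rods. The 147 short-wavelength rods with a Kdr or Flt1 UMI had 757 CPM (682 to 838) of the 13 Müller markers, against 509 CPM (501 to 516) in the other rods. In the white-light library 72 such rods had 897 CPM (798 to 1005), against 516 CPM (505 to 527). Rods with a receptor UMI had median depths of 2633 UMIs in SW and 3067.5 in WL, against 2357 in SW and 2749 in WL in the other rods. The part of Müller RNA or depth in the rod values was not tested. Müller-like cells held 2.56 Flt1 UMIs (2.25 to 2.93) per Kdr UMI in SW and 2.41 (2.02 to 2.87) in WL. Rods held 1.17 (0.841 to 1.62) in SW and 0.949 (0.588 to 1.53) in WL, and the intervals of both classes did not overlap in either library.

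Both kinases were found in the same single cells. Of 130 Müller-like cells, 104 held UMIs of both, 14 of Flt1 only, 3 of Kdr only and 9 of neither. The 104 cells with both comprised 70 of 87 short-wavelength and 34 of 43 white-light cells. The 9 cells with neither were shallow, with a median of 690 UMIs against 7384 in cells with both, and their Müller markers summed to 10548 CPM, against 17625 CPM. In the 3 SW cells with neither the markers summed to 13866 CPM, against 18247 CPM in SW cells with both. In the 6 WL cells with neither they summed to 6618 CPM at a median of 629 UMIs, against 16624 CPM. These 6 cells are among the 43 behind the WL shares of Kdr and Flt1. Ligand and receptor also met in single cells: of 56 short-wavelength Müller-like cells with a Vegfa UMI, 55 also held Kdr or Flt1, and of 27 white-light cells all 27 did. Among Müller-like cells in general, 84 of 87 in SW and 37 of 43 in WL held a receptor UMI.

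**Figure D2:**
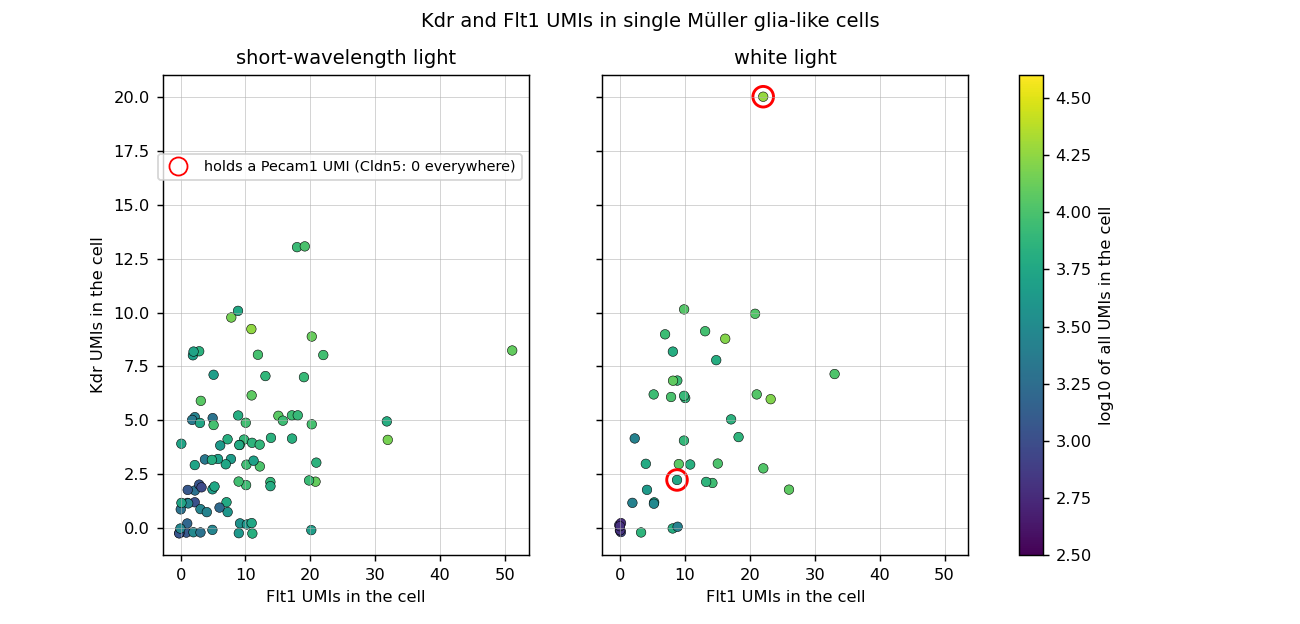
Kdr UMIs (y axis) against Flt1 UMIs (x axis) in each Müller glia-like cell, for short-wavelength light on the left and white light on the right, with a small random shift to separate points. Colour gives the log10 of all UMIs in the cell, and red rings mark the 2 cells with a Pecam1 UMI. The 9 cells without either receptor lie at the origin, with a median of 690 UMIs, and rings appear in the white-light panel only.

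Few Müller-like cells with the receptors held a Cldn5 or Pecam1 UMI. Cldn5, a tight-junction claudin that defines brain and retinal endothelium, had 0 UMIs in all 16106 short-wavelength and 5707 white-light barcodes, which allows up to 0.0186% of SW and 0.0526% of WL barcodes with a UMI. Pecam1, the endothelial adhesion molecule CD31, had 0 UMIs in SW and 3 in WL Müller-like cells (0 CPM in SW and 9.41 CPM in WL), against 9.86 CPM in SW and 9.37 CPM in WL rods. A Pecam1 UMI was found in 0% of SW and 4.65% of WL Müller-like cells, against 2.44% of SW and 2.71% of WL rods. Among the 73 short-wavelength Müller-like cells with a Kdr UMI, 73 had no Cldn5 or Pecam1 UMI (100%, 95.1% to 100%). In the white-light library it was 32 of 34 (94.1%, 80.3% to 99.3%). For Flt1 it was 81 of 81 in SW (100%, 95.5% to 100%) and 35 of 37 in WL (94.6%, 81.8% to 99.3%). As Cldn5 had no UMI in any barcode, these shares rest on Pecam1 alone. Pecam1 was also found in rods, so the shares cannot tell receptor RNA with endothelial RNA from receptor RNA without it.

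Receptor levels without the Pecam1 cells were close to those of the whole class. White-light Müller-like cells without a Cldn5 or Pecam1 UMI had 553 CPM of Kdr (472 to 645) and 1405 CPM of Flt1 (1273 to 1547). The 2 cells with a Pecam1 UMI held 22 Kdr and 31 Flt1 UMIs, or 912 CPM of Kdr and 1285 CPM of Flt1, and 1 of the 2 was the richest in Kdr, at 20 UMIs. With 8 endothelial genes counted (Cldn5, Pecam1, Cdh5, Tie1, Egfl7, Emcn, Esam and Erg), 71 of 73 SW and 30 of 34 WL cells with Kdr held none. These 8 leave out Itm2a and Ramp2, the markers with the most UMIs in Müller-like cells. Of all Müller-like cells, whether or not they held Kdr, 13 of 87 in SW and 12 of 43 in WL held a UMI of at least 1 of the 12 endothelial markers listed.

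All 12 endothelial markers together summed to 26.1 CPM (14.2 to 43.7) in short-wavelength and 72.2 CPM (45.7 to 108) in white-light Müller-like cells, against 10.9 CPM in SW and 10.6 CPM in WL rods. In rods Pecam1 alone gave 361 of the 399 UMIs of this sum in SW and 155 of the 175 in WL. Itm2a stood at 13.0 CPM in SW and 34.5 CPM in WL Müller-like cells, against 0.218 CPM in SW and 0.181 CPM in WL rods. Ramp2 stood at 9.30 CPM in SW and 22.0 CPM in WL Müller-like cells, against 0.218 CPM in SW and 0.242 CPM in WL rods. In Müller-like cells 9 of the 12 were at 0 in SW and 7 in WL. Itm2a and Ramp2, which also occur outside endothelium, made up most of the sum, with 7 Itm2a UMIs in SW and 11 in WL, and 5 Ramp2 UMIs in SW and 7 in WL. No single Müller-like cell held more than 2 of the 12 markers. Over all barcodes, before any filter, 0 in the short-wavelength and 1 in the white-light library held 3 or more, and that 1 was a rod with no Kdr or Flt1 UMI. At least 2 of the 12 were held by 4 barcodes in SW, 1 of them Müller-like, and by 8 in WL, 5 of them Müller-like. The 4 SW barcodes carried 2 Kdr and 5 Flt1 UMIs, and the 8 WL barcodes 30 Kdr and 58 Flt1 UMIs. The part of endothelial RNA in these receptor values was not tested.

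Mural cells, the other cells of the vessel wall, were checked in the same way. Rgs5, Kcnj8, Cspg4, Acta2 and Myh11, which mark pericytes and smooth muscle, were at 0 in Müller-like cells of both libraries. Of the 4 other mural markers, Abcc9 and Notch3 had at most 1 UMI in a library, and Vtn, which rods express, had 94.9 CPM in SW and 122 CPM in WL, against 650.0 CPM in SW and 714 CPM in WL rods. Pdgfrb, a growth factor receptor used as a pericyte marker, was the other, at 110 CPM (59 UMIs) in short-wavelength and 91.0 CPM (29 UMIs) in white-light Müller-like cells, against 0.0819 CPM in SW and 0.121 CPM in WL rods. A share of 46.0% of these cells in SW and 44.2% in WL held a Pdgfrb UMI.

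**Figure D3:**
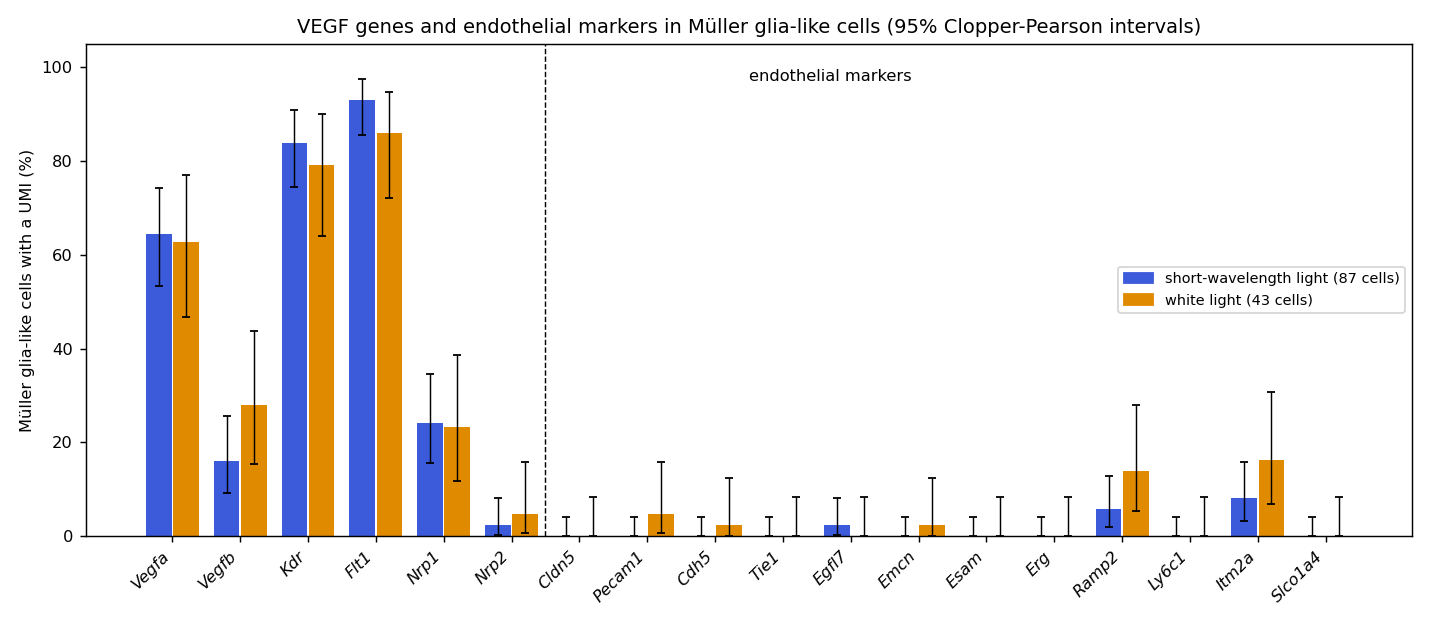
Share of Müller-like cells with at least 1 UMI (y axis, percent) of each of the 6 genes, left of the dashed line, and of 12 endothelial markers, right of it, for short-wavelength light (blue, 87 cells) and white light (orange, 43 cells). Bars are shares of 1 library and error bars 95% Clopper-Pearson intervals; Kdr and Flt1 reach 79.1% to 93.1%, while the highest endothelial marker, Itm2a, reaches 16.3%.

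The co-receptors were distributed differently from the kinases. Nrp1, which binds VEGF-A and semaphorin 3A, was highest in microglia or macrophage-like cells, at 127 CPM (90.3 to 174) in the short-wavelength and 85.6 CPM (49.0 to 139) in the white-light library. Müller-like cells came next, at 57.7 CPM (39.2 to 81.9) in SW and 43.9 CPM (24.0 to 73.7) in WL, against 0.0819 CPM in SW and 0.726 CPM in WL rods. In the short-wavelength library the intervals of microglia and Müller-like cells did not overlap, and in the white-light library they did. The unnamed inner neurons had 15.3 CPM in SW and 10.7 CPM in WL. Nrp1 UMIs were found in 40.9% of SW and 34.8% of WL microglia or macrophage-like cells and in 24.1% of SW and 23.3% of WL Müller-like cells, against 0.0238% of SW and 0.248% of WL rods. Microglia or macrophage-like cells had medians of 7586 UMIs per cell in SW and 8036 in WL. Thinned to 1000 UMIs, the shares were 17.9% in SW and 13.6% in WL for microglia or macrophage-like cells and 7.06% in SW and 5.41% in WL for Müller-like cells, against 0.00794% in SW and 0.0437% in WL for rods.

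Nrp2, which prefers semaphorin 3F and the lymphatic ligand VEGF-C, was low in Müller-like cells, at 3.72 CPM in SW and 9.41 CPM in WL on 2 UMIs in SW and 3 in WL. It was high in microglia or macrophage-like cells, at 111 CPM (76.6 to 155) in SW and 134 CPM (86.6 to 198) in WL. It was also high in the unnamed inner neurons, at 117 CPM (89.3 to 150) in SW and 78.2 CPM (49.0 to 118) in WL, and these 2 groups overlapped. Rods had 0.437 CPM in SW and 0.484 CPM in WL. Within the inner neurons, a division of 27 cells led by Cntn5, Kcnb2 and Calb1 held 41 Nrp2 UMIs (171 CPM) and 44 Vegfa UMIs (183 CPM) over both libraries, but 0 Nrp1 UMIs. Nrp2 was at similar levels in 3 other divisions, with 169 CPM in 7 cells (9 UMIs), 146 CPM in 18 cells (12 UMIs) and 145 CPM in 14 cells (15 UMIs). A division of 16 cells had 54.0 CPM of Nrp2 (6 UMIs), and those of 13 and 9 cells held 0 Nrp2 UMIs. The 20-cell division from the white-light library alone also held 0 Nrp2 UMIs, and 1 Vegfa UMI.

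By the pattern over 5 named classes in 2 libraries (10 values, log2 of CPM plus 5), the genes most like each member were found among genes with at least 100 UMIs. Values of the same library and class share their cells and depth, so the correlations are descriptions. Kdr was most like Sh3pxd2b (Pearson r = 0.996), Adgrl3 (0.992) and Grin2b (0.991). Flt1 was most like Npas3 (0.998), Ephb1 (0.996) and Adgra2 (0.995). Adgra2 encodes GPR124, a receptor best known for brain endothelial Wnt signalling; it stood at 140 CPM in SW and 132 CPM in WL Müller-like cells, against 0.410 CPM in SW and 0.605 CPM in WL rods. Npas3, a neural transcription factor, stood at 683 CPM in SW and 709 CPM in WL, against 1.15 CPM in SW and 1.81 CPM in WL rods.

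Vegfa was most like Six3, a homeobox factor of eye development (r = 0.985), Rhobtb3 (0.985) and Fbxo44 (0.980). Six3 had 275 CPM in SW and 298 CPM in WL Müller-like cells and 0 UMIs in microglia or macrophage-like cells, against 2.81 CPM in SW and 4.05 CPM in WL rods. Vegfb was most like Ptpn9 (0.963), Anxa6 (0.947) and Uhrf1bp1l (0.937). Over the named classes, the neuropilins resembled genes that were highest in microglia or macrophage-like cells. The unnamed inner neurons, where Nrp2 stood at 117 CPM in SW and 78.2 CPM in WL, were left out of this comparison. Nrp1 resembled Suclg2 (0.992), Gm2a (0.990) and Prex1 (0.989), and Nrp2 resembled Mcl1 (0.996) and Ptk2b (0.996).

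Between the light conditions no member with over 100 UMIs in a class, summed over both libraries, was past 1.5-fold with all UMIs used. Thinned to 1000 UMIs, Flt1 in rods was at 1.72 (0.793 to 4.28). A gene was counted as past the fold when its CPM ratio was over 1.5 or under its inverse, and 23 of 36 gene and class pairs had the 10 UMIs asked for. In Müller-like cells 0 of 5 members passed with all UMIs used, against 29.8% of all genes tested there. In rods it was 1 of 6, against 14.7%, and in cones 1 of 3, against 18.7%. In rod bipolar-like cells it was 0 of 2, against 25.2%, in microglia or macrophage-like cells 1 of 3, against 41.8%, and in the unnamed inner neurons 1 of 4, against 37.9%. These shares cover genes with as few as 10 UMIs. In Müller-like cells 423 of the 2921 genes past the fold had at least 50 UMIs. Flt1, Kdr and Vegfa had over 100 there, so the share of all genes is not one of genes with like counts. In total 4 pairs passed and 3 had an interval wholly on 1 side of equality. The median log2 ratio of all genes lay between -0.03 and 0.04 in each class.

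For both receptor kinases the intervals included equality. The ratio of short-wavelength to white-light CPM in Müller-like cells was 1.02 (0.848 to 1.23) for Kdr and 1.09 (0.967 to 1.22) for Flt1. Thinned to 1000 UMIs, these ratios were 1.45 (0.802 to 2.78) for Kdr and 1.32 (0.929 to 1.89) for Flt1, on 50 SW and 15 WL UMIs of Kdr and 133 SW and 44 WL UMIs of Flt1. Their medians per cell were 3 UMIs in SW and 3 in WL for Kdr and 8 UMIs in SW and 9 in WL for Flt1. Nrp1 was at 1.31 (0.678 to 2.67) and Vegfb at 0.712 (0.339 to 1.52) in the same cells. Both passed 1.5-fold under other settings. Averaged over cells the ratio was 1.86 for Nrp1 and 0.237 for Vegfb, and without the richest cell of each library it was 1.66 (0.785 to 3.84) for Nrp1. The Vegfb average depends strongly on the shallow WL cells of 620 and 613 UMIs described above.

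Vegfa was 1.32-fold (1.02 to 1.72) higher in short-wavelength than in white-light Müller-like cells, under the fold asked for. The lower bound was 0.982 with doublets kept, 0.999 with each library clustered alone and 0.955 without the cells that held a Pecam1 UMI. Thinned to 1000 UMIs the direction turned, at 0.871 (0.405 to 1.99) on 22 UMIs in SW and 11 in WL. In rods the Vegfa ratio was 1.11 (0.961 to 1.28), in cones 0.949 (0.733 to 1.24) and in rod bipolar-like cells 0.8497 (0.564 to 1.29). In the unnamed inner neurons it was 1.41 (0.871 to 2.37), or 1.13 (0.692 to 1.91) without the 20 cells of the division found in 1 library.

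The 4 pairs past the fold had few UMIs. Nrp1 in rods had 3 short-wavelength and 12 white-light UMIs, a ratio of 0.113 (0.0204 to 0.418) that became 0.627 with 1 CPM added to each level. Nrp1 in cones had 9 UMIs in SW and 1 in WL, a ratio of 3.29 (0.456 to 144). Vegfb in microglia or macrophage-like cells had 8 UMIs in SW and 9 in WL, a ratio of 0.540 (0.181 to 1.58). Vegfb in the unnamed inner neurons had 19 UMIs in SW and 22 in WL, a ratio of 0.465 (0.238 to 0.900), and 0.392 (0.198 to 0.774) without the division found in 1 library. In microglia or macrophage-like cells Nrp1 was at 1.48 (0.809 to 2.84) and Nrp2 at 0.827 (0.479 to 1.45).

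**Figure D4:**
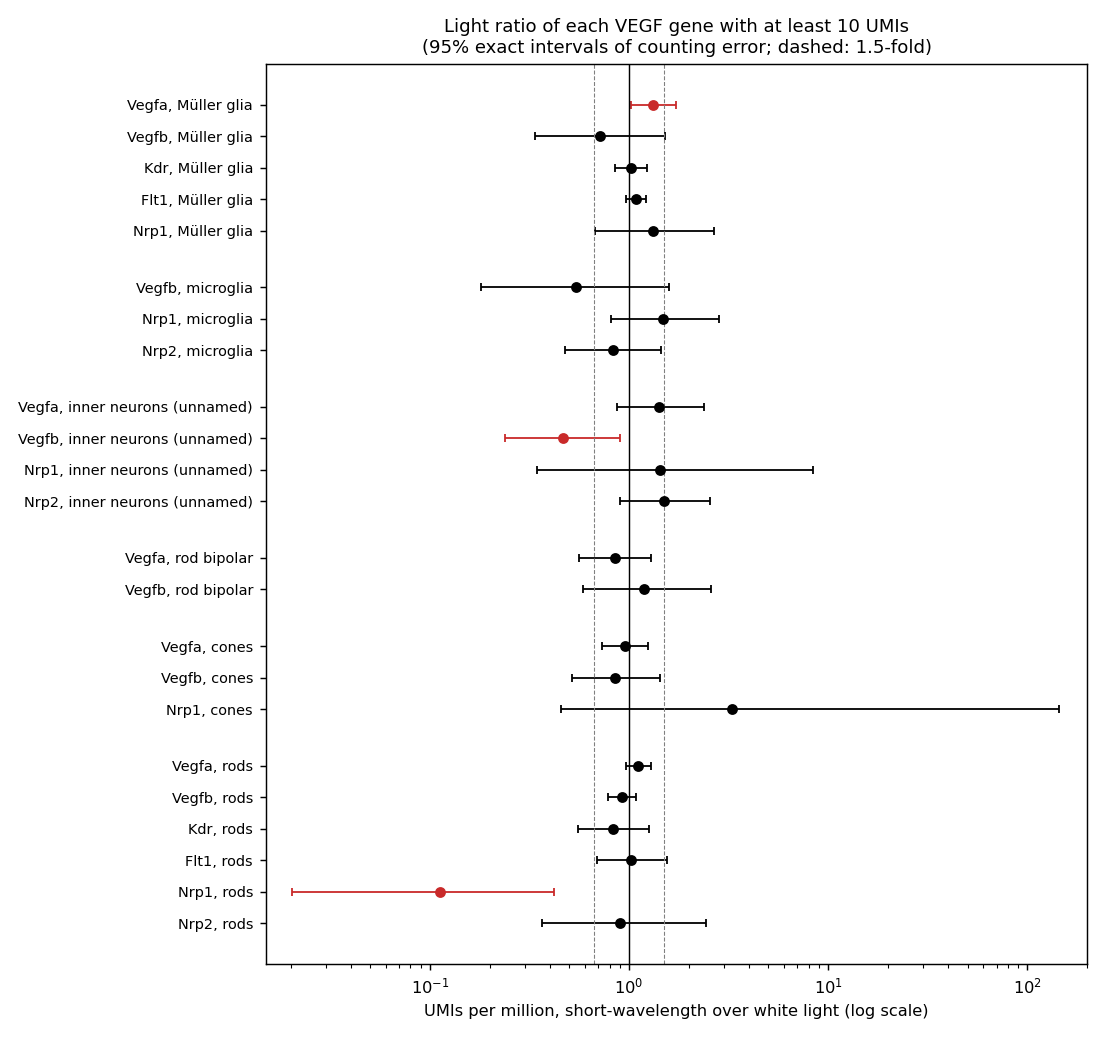
Ratio of CPM, short-wavelength over white light (x axis, log scale), for the 23 gene and class pairs with at least 10 UMIs. Points are ratios of 1 library to 1 library, bars are 95% exact intervals of counting error, dashed lines mark 1.5-fold and red marks the 3 intervals that leave out 1. Kdr and Flt1 in Müller glia sit at 1.02 and 1.09.

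The other genes of the pathway were read from lists. Of the further VEGF family (Vegfc, Vegfd, Pgf and Flt4), 1 of 4 reached 10 UMIs in Müller-like cells. That was Vegfc, the lymphatic ligand, at 13.0 CPM in SW and 12.5 CPM in WL on 7 UMIs in SW and 4 in WL. Flt4, its receptor, had 0 UMIs there, which allows up to 5.58 CPM in SW and 9.41 CPM in WL. Of 12 class 3 semaphorins and plexins 5 were measurable, and 0 passed 1.5-fold between the lights, with a median log2 ratio of -0.27 against 0.02 for all genes. Sema3e, a repulsive vascular guidance cue, was the most abundant of them by UMIs, at 225 CPM in SW and 273 CPM in WL Müller-like cells, against 0.382 CPM in SW and 0.605 CPM in WL rods. Plxna2, a plexin that acts with neuropilins, was at 37.2 CPM in SW and 50.2 CPM in WL Müller-like cells, against 214 CPM in SW and 229 CPM in WL rods. Sema3b and Sema3f each had at most 11 UMIs in the Müller-like cells of a library, at 13.0 CPM in SW and 18.8 CPM in WL for Sema3f, against 65.0 CPM in SW and 64.6 CPM in WL rods.

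Signalling genes downstream of KDR were broadly present. Of 16 listed, 14 were measurable in Müller-like cells; 0 were past 1.5-fold higher (16.8% of all genes) and 2 past it lower (13.0% of all genes), with a median log2 ratio of -0.07 against 0.02 for all genes. The 2 were Plcg1, the phospholipase that KDR activates, at 27.9 CPM in SW and 53.3 CPM in WL, and the kinase Src, at 27.9 CPM in SW and 50.2 CPM in WL. The ratio was 0.523 (0.243 to 1.11) for Plcg1 and 0.556 (0.256 to 1.20) for Src. Among those with the most UMIs were protein kinase C alpha, Prkca (160.0 CPM in SW and 138 CPM in WL), the lipid kinase Pik3ca (143 CPM in SW and 166 CPM in WL), and focal adhesion kinase, Ptk2 (117 CPM in SW and 94.1 CPM in WL). All 3 were also present in rods, where Prkca, a rod bipolar marker as well, had 749.9 CPM in SW and 808 CPM in WL, Pik3ca 228 CPM in SW and 221 CPM in WL, and Ptk2 116 CPM in SW and 120.0 CPM in WL. The part of rod RNA in the Müller-like values was not tested.

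Oxygen-sensing genes, which control Vegfa, showed ratios on both sides of equality. Of 8 genes listed, 7 were measurable in Müller-like cells, with 1 past 1.5-fold higher (16.8% of all genes), 1 past it lower (13.0% of all genes) and a median log2 ratio of 0.07, against 0.02 for all genes. Hif1a, the inducible hypoxia factor subunit, had 221 CPM in SW and 210 CPM in WL, a ratio of 1.05 (0.775 to 1.44). Its paralogue Epas1 (HIF-2 alpha) had 72.6 CPM in SW and 144 CPM in WL, a ratio of 0.503 (0.320 to 0.788). Egln1, the prolyl hydroxylase that marks HIF for decay, had 68.8 CPM in SW and 25.1 CPM in WL, a ratio of 2.74 (1.26 to 6.82) on 37 UMIs in SW and 8 in WL. In rods, with far more UMIs, the ratios were 1.03 for Hif1a (678 CPM in SW and 655 CPM in WL), 0.959 for Epas1 (125 CPM in SW and 131 CPM in WL) and 1.07 for Egln1 (71.5 CPM in SW and 66.7 CPM in WL). Arnt, the partner of both factors, had 76.3 CPM in SW and 104 CPM in WL Müller-like cells, a ratio of 0.737 (0.455 to 1.20), against 95.02 CPM in SW and 92.8 CPM in WL rods.

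Of 15 hypoxia-responsive genes 10 were measurable in Müller-like cells; 2 were past 1.5-fold higher (16.8% of all genes) and 0 past it lower (13.0% of all genes), with a median log2 ratio of 0.07 against 0.02 for all genes. The 2 were Bnip3, a mitophagy receptor, at 59.5 CPM in SW and 31.4 CPM in WL (ratio 1.90, 0.910 to 4.33), and Ndrg1, at 96.8 CPM in SW and 53.3 CPM in WL (1.81, 1.03 to 3.35). The glucose transporter Slc2a1 had 242 CPM in SW and 207 CPM in WL (1.17, 0.862 to 1.596) and lactate dehydrogenase Ldha 233 CPM in SW and 216 CPM in WL (1.07, 0.795 to 1.46). The collagen hydroxylase P4ha1 had 164 CPM in SW and 166 CPM in WL, and hexokinase Hk2 had 125 CPM in SW and 166 CPM in WL. Rods had higher levels of Ldha (1088 CPM in SW and 1073 CPM in WL), Hk2 (768 CPM in SW and 770.2 CPM in WL) and Ndrg1 (311 CPM in SW and 299 CPM in WL) than Müller-like cells. Rod levels were lower for P4ha1 (109.7 CPM in SW and 95.3 CPM in WL), Slc2a1 (68.7 CPM in SW and 68.6 CPM in WL) and Bnip3 (29.3 CPM in SW and 21.0 CPM in WL). In rods 2 of 13 were past the fold higher and 1 past it lower, against 4.68% higher and 10.0% lower among all genes, and the list's median was 0.10 against -0.00 for all genes.

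Of 17 other angiogenic and neurotrophic factors 5 were measurable in Müller-like cells, and 1 was past the fold lower, against 13.0% of all genes. All 5 were at ratios of 0.901 or less, but the interval of each included 1. The narrowest was that of Tgfb2, at 0.901 (0.732 to 1.11). Tgfb2, a growth factor of the retinal glia, had 435 CPM in SW and 483 CPM in WL, against 7.15 CPM in SW and 6.05 CPM in WL rods. Fgf2, a survival factor for photoreceptors, had 57.7 CPM in SW and 65.9 CPM in WL Müller-like cells, against 19.7 CPM in SW and 19.4 CPM in WL rods. The norrin receptor components Lrp5 and Tspan12, which act in retinal vessel growth, were also measurable, Lrp5 at 39.1 CPM in SW and 62.7 CPM in WL and Tspan12 at 29.8 CPM in SW and 37.6 CPM in WL. Lrp5 was the gene past the fold, with a ratio of 0.623 (0.321 to 1.21) on 21 UMIs in SW and 20 in WL. The list's median log2 ratio was -0.29, against 0.02 for all genes.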

How the data were processed

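Dissociated retinas were profiled by droplet single-cell RNA sequencing in 2 libraries, 1 per light condition. The authors deposited whole-number UMI counts per gene and cell barcode, and per the file headers Cell Ranger 9.0.0 wrote them; mm10, Seurat and edgeR are named in the submitters' processing notes, with no role stated. Whether introns were counted is not given in the sources used here.

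From these counts, a cell passed with 300 or more genes and no more than 20% of its UMIs mitochondrial (16095 short-wavelength, 5695 white-light). Scrublet's own threshold marked under 0.5% of cells, so doublets were instead taken as the top-scoring 0.8% for every 1000 barcodes (12.9% and 4.55% left out). Both libraries were clustered together with scanpy 1.11.5 under Python 3.11.15, with scikit-learn 1.9.0 and igraph 0.11.9 (Leiden resolution 1, 15 neighbours, 30 components, 2000 variable genes). A cluster took a name where its marker score reached 0.5 and 3 or more markers were detected. Classes other than rods also needed 3 own markers among the 20 leading genes. Further limits covered the rod score, markers of other types and depth. The scoring was settled with the data in view. UMIs were summed per class and library and given as CPM with exact Poisson intervals; shares have Clopper-Pearson intervals and ratios exact conditional binomial intervals (95%, scipy 1.17.1). They cover counting error only, and a count of 0 is read as up to 3 UMIs. Ratios asked for 10 UMIs over both groups; log2 ratios had 5 CPM added. With 1 library per condition no test was made.

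The members and gene lists were chosen with earlier results of these data known. Named were all 6 members, the 4 genes of each list with the most UMIs in Müller glia-like cells, and the 3 genes most like each member; other genes named for passing a fold, and single marker genes, were picked after their values were seen. Of the genes this rule names, 2 are not reported here. Egln3 is in both hypoxia lists. Positions came from GENCODE vM21 by gene ID (6 of 6 matched) and promoters from a RefSeq table by symbol (6 of 6). Calculations were checked on simulated data. Alternatives covered cell filters, doublets, clustering, thinning, scaling by median-of-ratios and by TMM factors (R 4.3.3, edgeR 4.0.16), averaging over cells and single cells left out.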

Additional observations from a re-analysis of the deposited data

How the results depend on the processing

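Each class rests on 1 library per light, so differences between animals, dissections or libraries cannot be told apart from those of light. No paired analysis was possible because each light condition had 1 library. Of 304 recomputed light ratios, 291 moved by less than their own error, as did 135 of 142 ratios of Müller glia-like cells to rods and all 24 shares of receptor-bearing cells without endothelial UMIs. Those shares had little room to move, since few of these cells held a UMI of the endothelial genes counted. Alternative clusterings gave no value for the unnamed inner neurons. Median-of-ratios scaling shifted the microglia or macrophage-like ratio by 0.11 on the log2 scale, and no other class by over 0.1.

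Thinned to 1000 UMIs, in Müller glia-like cells the light ratios became 0.871 for Vegfa, 1.45 for Kdr and 1.32 for Flt1, and in rods 1.37 for Vegfa. Vegfb in microglia or macrophage-like cells turned to 1.13, on few UMIs. Against rods, thinned short-wavelength Müller glia-like cells were at 13.7 for Vegfa, 494 for Kdr and 519 for Flt1, and white-light cells at 21.6 for Vegfa. Averaged over cells, the Kdr light ratio was 1.30, and Flt1 over rods was 522 under short-wavelength and 339 under white light. The cause was not tested. Genes past 1.5-fold between the lights numbered 2921 in Müller glia-like cells and 2386 in rods. They numbered 7794 and 7944 with no minimum count, 423 and 579 with at least 50 UMIs, and 1124 and 1108 at 2-fold.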
